A study of Mus musculus with 6 samples.

Results

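Mitosis and spindle genes were followed as a group of 36 genes that build and drive the dividing cell: cyclins, mitotic kinases, checkpoint proteins, kinetochore parts, spindle motors and the machinery of cytokinesis. They were chosen by function from a list of names, with earlier results of these data known. All 36 were found among the 17312 genes of the expression table. RNA had been sequenced from 6 mouse leg tumors, 3 that carried a Cre-lox inducible allele of SS18-SSX1 and 3 that carried one of SS18-SSX2, the fusion oncogenes of human synovial sarcoma. The alleles were switched on by TATCre, cell-permeable Cre protein placed by injection before the shin bone (pre-tibial). No other treatment was given, and about 1 year passed before the tumors were taken. Neither strain, age of the mice nor promoter of the alleles is given in the labels. The samples are labelled as separate tumors, without saying whether each came from a mouse of its own, so p-values measure the spread between these tumors. No tumor without a fusion and no normal tissue was part of the comparison.

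Cells enter mitosis when cyclin B and Cdk1 become active together, and they leave it when the anaphase promoting complex (APC/C) with its activator Cdc20 marks cyclin B and securin for destruction. Between these events kinetochores attach chromosomes to the spindle, and the spindle checkpoint holds Cdc20 back until every chromosome is attached. The genes are switched on together in G2 and mitosis and are held down in resting cells, so their RNA in a tissue serves as a sign of how many cells divide. Their promoters are known for the cell cycle genes homology region (CHR), bound by the MuvB complex, and for CCAAT boxes bound by NF-Y. MuvB represses as part of the DREAM complex in resting cells and activates with B-Myb and FoxM1 in dividing cells.

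The promoters are shown first because most members share these elements. A promoter window of 300 bases, 250 before to 50 after the annotated start, was found for 30 of the 36 members in RefSeq (GRCm38.p6, the mouse assembly that mm10 also names). The members without one were Aurkb, Ccna2, Foxm1, Incenp, Kif20a and Tpx2. The letters TTTGAA, the CHR consensus, were found on either strand in 22 of the 30 members (73.3%), against 17.9% of all 32851 windows and 13.8% of the 10053 tested genes with a window. CCAAT was found on either strand in 22 of 30 (73.3%), against 37.4% of all windows and 42.9% of tested genes. Both motifs stood in 19 of 30 (63.3%), against 6.95% of all windows and 5.67% of tested genes. A CCAAT that began 20 to 40 bases before a CHR was found in 12 of 30, against 0.895% of all windows and 0.955% of tested genes. That spacing was chosen after the positions were seen. Members and tested genes were counted if any of their windows matched. A match is a description of letters, not of binding.

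The 120 bases before the start are given, 5′ to 3′ on the gene's own strand, for the 7 members with a CHR wholly inside the last 50 bases and a CCAAT upstream of it, and for Pttg1, which had neither. Capitals mark CHR and CCAAT matches on either strand (TTCAAA and ATTGG are their reverse complements). The first base of the CHR lay 15 bases before the start in Cdk1, 18 in Cdc20, 19 in Kif11, 23 in Top2a, 29 in Ube2c, 30 in Prc1 and 43 in Bub3. The nearest CCAAT upstream began 26 bases before the CHR in Kif11, 28 in Ube2c, 31 in Bub3, 32 in Prc1, 33 in Cdk1 and 35 in both Cdc20 and Top2a. RefSeq lists 2 starts for Prc1 and for Bub3, and the first in genome order that met this rule is shown. The stretches are chr10:69352913-69353032 (minus strand) for Cdk1, chr4:118437344-118437463 (minus strand) for Cdc20, chr19:37376262-37376381 (plus strand) for Kif11 and chr11:99024190-99024309 (minus strand) for Top2a. Those of the others are chr2:164769809-164769928 (plus strand) for Ube2c, chr7:80294356-80294475 (plus strand) for Prc1, chr7:131560250-131560369 (plus strand) for Bub3 and chr11:43425982-43426101 (minus strand) for Pttg1.
Cdk1: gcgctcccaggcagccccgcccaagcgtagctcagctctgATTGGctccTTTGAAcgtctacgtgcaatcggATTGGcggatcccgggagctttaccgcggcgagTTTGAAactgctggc
Cdc20: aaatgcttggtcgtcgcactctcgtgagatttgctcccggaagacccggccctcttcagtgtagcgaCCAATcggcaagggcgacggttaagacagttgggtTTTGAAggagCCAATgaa
Kif11: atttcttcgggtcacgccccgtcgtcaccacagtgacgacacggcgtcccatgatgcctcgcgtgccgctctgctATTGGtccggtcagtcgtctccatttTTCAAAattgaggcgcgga
Top2a: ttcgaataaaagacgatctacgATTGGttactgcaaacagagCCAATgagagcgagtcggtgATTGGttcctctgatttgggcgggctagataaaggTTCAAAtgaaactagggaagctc
Ube2c: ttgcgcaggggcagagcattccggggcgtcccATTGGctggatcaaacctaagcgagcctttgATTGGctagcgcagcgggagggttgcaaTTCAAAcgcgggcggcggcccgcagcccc
Prc1: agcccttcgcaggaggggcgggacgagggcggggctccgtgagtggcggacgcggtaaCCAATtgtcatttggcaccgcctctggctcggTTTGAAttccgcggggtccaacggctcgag
Bub3: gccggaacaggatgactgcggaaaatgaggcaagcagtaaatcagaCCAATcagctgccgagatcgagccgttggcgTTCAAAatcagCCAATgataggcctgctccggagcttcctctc
Pttg1: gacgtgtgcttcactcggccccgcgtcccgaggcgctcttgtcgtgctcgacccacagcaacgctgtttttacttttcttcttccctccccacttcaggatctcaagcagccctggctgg

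**Figure D1:**
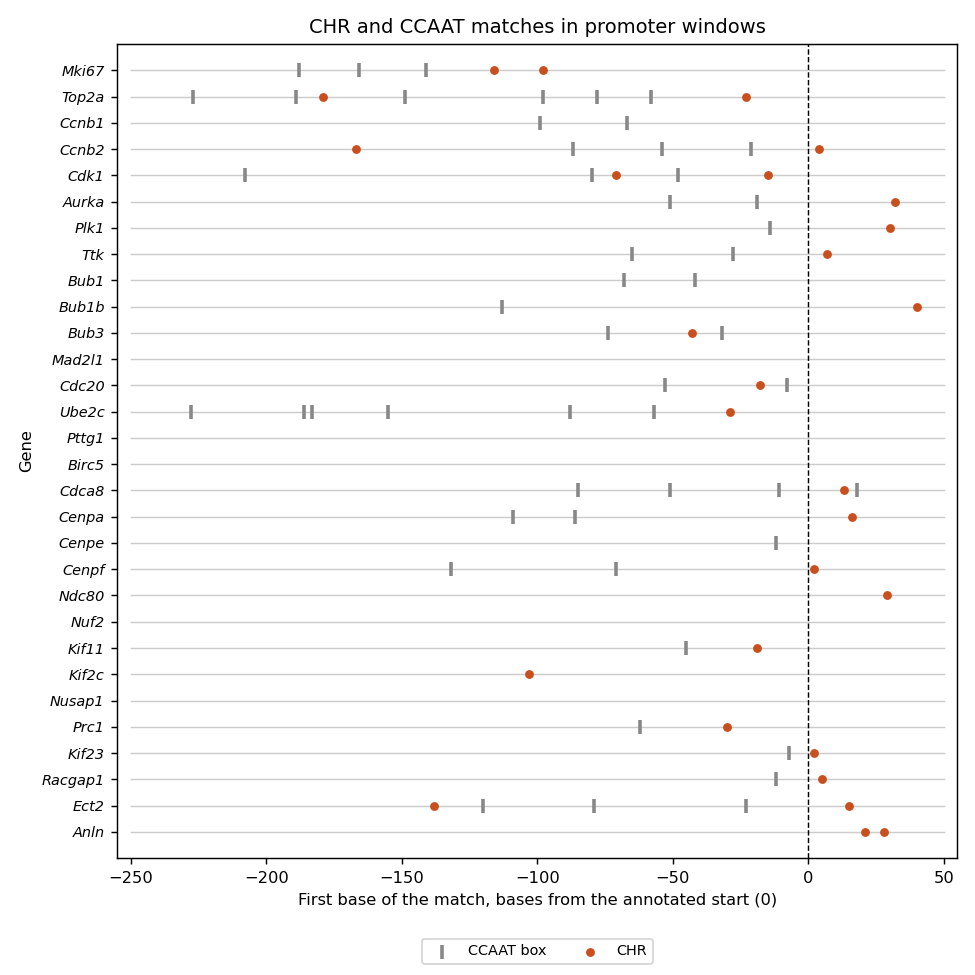
Positions of CHR (orange dots) and CCAAT (grey ticks) matches in the promoter windows of 30 members, as the first base of each match in bases from the annotated start (dashed line at 0), with 1 window drawn per gene (for printed genes, the printed one). CHR matches gather near the start with CCAAT matches ahead of them, and the lines of Mad2l1, Pttg1, Birc5, Nuf2 and Nusap1 carry neither.

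All 36 members were expressed in every tumor and all passed the filter of at least 1 FPKM in at least 3 tumors. FPKM gives the reads of a gene per kilobase of its model, scaled to the total reads of the library. Levels can thus be compared between genes only as far as the gene models, which are not given, are right. The steps between low FPKM values gave library totals of 7285853 reads in SS18-SSX2 tumor 2 and 13316363 to 17546227 reads in the other 5. Each member then rested on 41 to 11548 reads per tumor, and the median member on 171 reads in the shallowest library and 973 in SS18-SSX2 tumor 1. Bub3 had the highest mean over the 6 tumors at 47.8 FPKM, followed by Mki67 at 31.7, Top2a at 29.6 and Cdc20 at 23.0, and Ccnb1 had the lowest at 2.39. The median member had a mean of 10.1 FPKM. Tumors differed 4.77-fold between the highest and lowest value for the median member, from 1.63-fold in Pttg1 to 9.68-fold in Mki67.

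Mitosis genes stood high in SS18-SSX2 tumors 1 and 3 and low in SS18-SSX1 tumor 2, with the other 3 tumors between. SS18-SSX2 tumor 1 held the highest value of 22 members and SS18-SSX2 tumor 3 that of 10, while SS18-SSX1 tumor 3 held it for 3 and SS18-SSX1 tumor 1 for 1. SS18-SSX1 tumor 2 was the lowest tumor for 28 members. For tumors 1, 2 and 3 the mean log2(FPKM + 1) over the 36 genes was 2.83, 2.45 and 3.21 under SS18-SSX1, and 4.27, 2.94 and 4.01 under SS18-SSX2. The group means were 2.83 ± 0.378 and 3.74 ± 0.704 (SD, n = 3). SS18-SSX2 tumor 2 thus lay among the SS18-SSX1 tumors: its value was below that of SS18-SSX1 tumor 3 for 24 of 36 members, and the median member was at 0.354 times its level in SS18-SSX2 tumor 1. SS18-SSX2 tumors 1 and 3 both lay above every SS18-SSX1 tumor for 29 members.

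**Figure D2:**
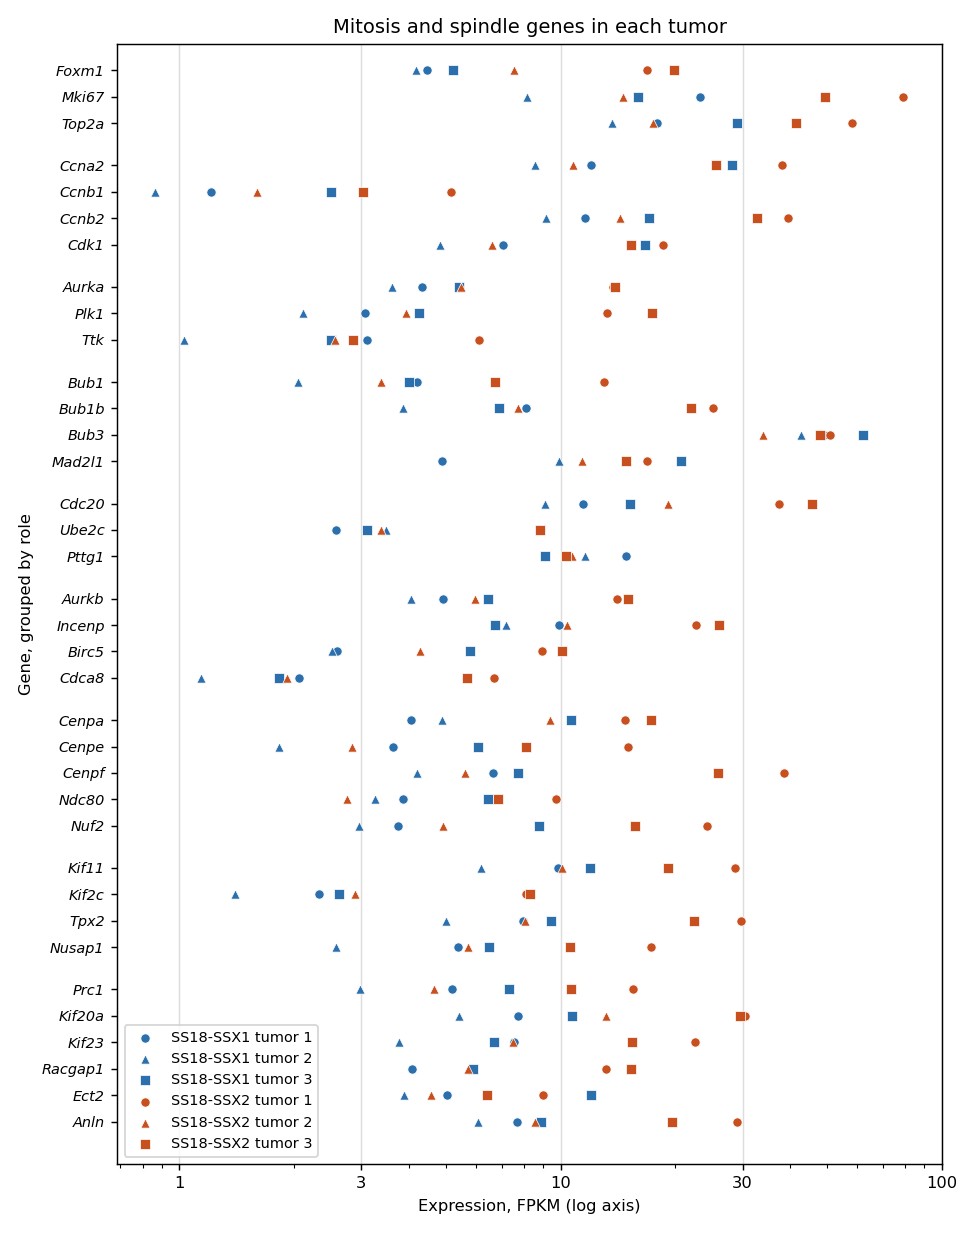
Expression of the 36 mitosis and spindle genes in each tumor, in FPKM on a log axis, with genes grouped by role and 1 point per tumor (blue SS18-SSX1, orange SS18-SSX2; circle, triangle and square for tumors 1, 2 and 3). The orange circles and squares lie to the right in most rows, the blue triangles to the left, and the points of Bub3 and Pttg1 lie close together.

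Tumor 2 of each genotype also held the most muscle RNA. Summed over 10 muscle fibre genes, tumor 2 had 9772 FPKM under SS18-SSX1 and 4512 FPKM under SS18-SSX2, and the other 4 tumors had 94.7 to 437 FPKM. For 30 members SS18-SSX1 tumor 2 was the lowest of its genotype, and for 35 members SS18-SSX2 tumor 2 was. In bulk RNA fewer dividing cells and less RNA per cell cannot be told apart, and the part of muscle RNA in the members' values was not tested beyond the fits with it as a covariate and without these tumors. Acta1, the actin of skeletal muscle fibres, had 81.7, 2772 and 81.8 FPKM, then 33.2, 1219 and 43.6 FPKM, and Ckm, muscle creatine kinase, had 32.4, 1285 and 69.9 FPKM, then 7.88, 556 and 12.01 FPKM. The muscle, mast cell, macrophage and endothelial lists had no gene at 0 in any tumor. Mast cell markers summed to 2519 FPKM in SS18-SSX1 tumor 3 and to 13.8 to 99.4 FPKM elsewhere. B and plasma cell markers also peaked in tumor 2, at 745 FPKM under SS18-SSX2 and 80.2 FPKM under SS18-SSX1, with 2.20 to 5.19 FPKM in the rest. Macrophage markers ran from 48.0 to 383 FPKM under SS18-SSX1 and from 145 to 620 FPKM under SS18-SSX2. Endothelial markers ran from 11.9 to 78.3 and from 23.9 to 92.5 FPKM, and erythroid markers from 18.1 to 735 and from 73.3 to 573 FPKM. T and NK cell markers stayed at or under 8.12 FPKM and the 2 neutrophil markers with a row at or under 8.95 FPKM. Of the sarcoma markers, Tle1, a corepressor used in diagnosis, had 23.3 to 25.7 FPKM with SS18-SSX1 and 29.8 to 37.0 FPKM with SS18-SSX2, and Bcl2 had 3.32 to 10.7 FPKM over the 6 tumors. The part of these other cell types in the members' values was not tested.

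The design asks whether tumors driven by SS18-SSX1 and SS18-SSX2 differ. For 34 of the 36 members the mean on the log2 scale was higher in SS18-SSX2 tumors, and 51.1% of all 13873 tested genes lay on that side. Fold changes are differences of mean log2(FPKM + 1), SS18-SSX1 subtracted from SS18-SSX2, and are too small for genes of low level. The median was 0.99 over the members and 0.01 over all tested genes. None of the 36 passed limma's test at an adjusted p of 0.05 (Benjamini-Hochberg, over all genes tested), where 9 genes passed (0.0649%), 6 of them higher (0.0432%) and 3 lower (0.0216%) in SS18-SSX2 tumors. The members' adjusted p ran from 0.593 to 0.997. At an unadjusted p under 0.05 stood 17 members, all higher in SS18-SSX2 tumors, against 3.26% of tested genes higher, 1.71% lower and 4.97% in either direction. That count was 9, 4 and 19 of 36 with SS18-SSX1 tumor 1, 2 or 3 left out, where 6.51%, 5.82% and 6.33% of all genes in the same fits were at such a p in either direction. It was 3, 28 and 3 with SS18-SSX2 tumor 1, 2 or 3 left out, where 3.49%, 6.98% and 2.20% of all genes were. After rescaling to TPM it was 7, where 3.63% of all genes were. A difference of at least 1 on the log2 scale was fitted for 18 members and for 3.47% of tested genes. The groups did not overlap for 6 members, all higher in SS18-SSX2 tumors, where 4.97% of tested genes were apart and higher, 3.76% apart and lower and 8.72% apart in either direction. Members follow one another from tumor to tumor, so these counts do not add up as independent results, and 3 tumors against 3 allow no exact permutation p under 0.1.

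**Figure D3:**
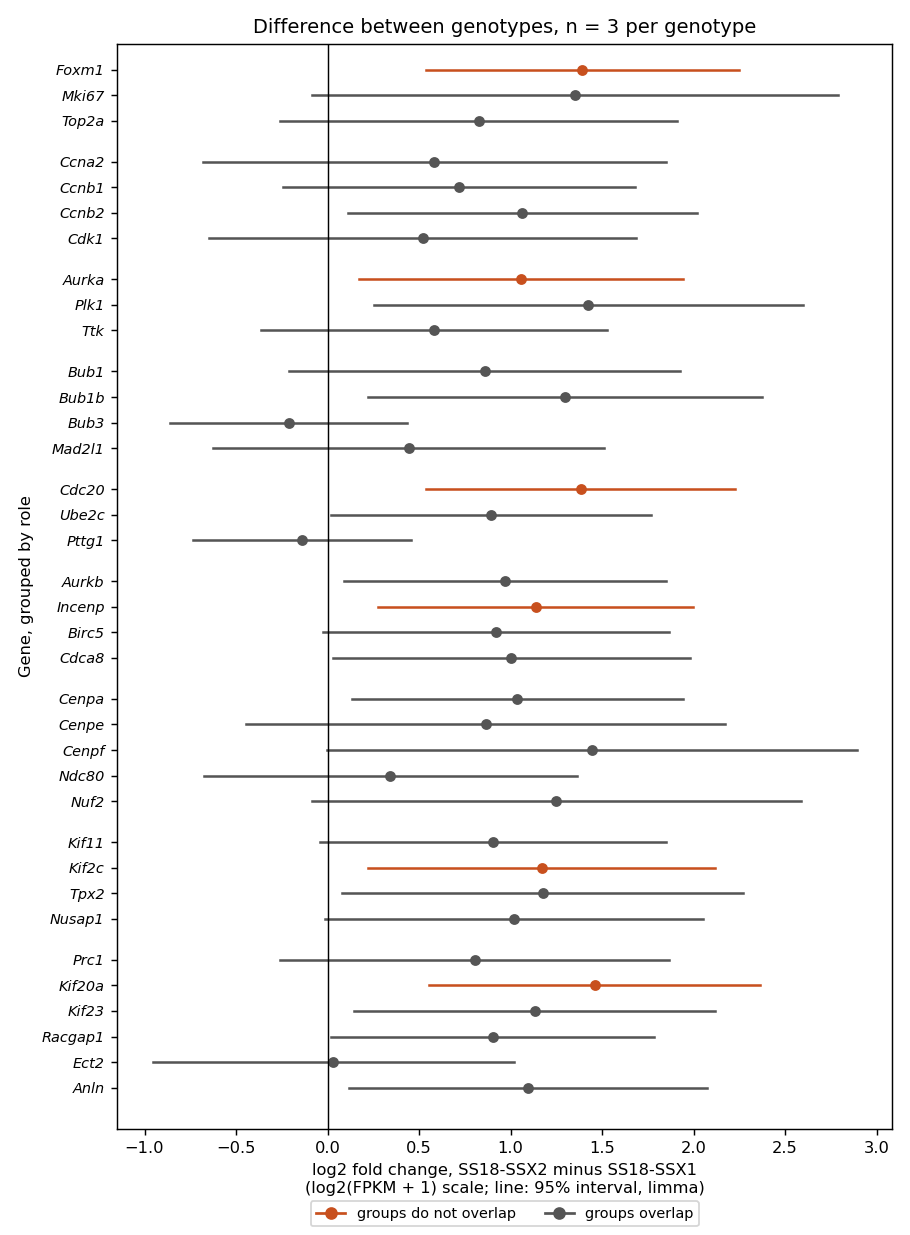
Log2 fold change of each member between genotypes on the log2(FPKM + 1) scale, with its 95% interval from limma (n = 3 per genotype). Orange marks the 6 genes whose groups did not overlap, from 1.06 for Aurka to 1.46 for Kif20a, and the intervals of 19 members include 0.

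Foxm1 (ENSMUSG00000001517, chromosome 6, 128362967 to 128376146 on GRCm38) encodes the transcription factor that switches on the mitotic program in G2. Its values in tumors 1, 2 and 3 were 4.47, 4.17 and 5.22 FPKM under SS18-SSX1, and 16.9, 7.56 and 19.8 FPKM under SS18-SSX2. All SS18-SSX2 tumors lay above all SS18-SSX1 tumors. Means were 4.62 ± 0.542 and 14.8 ± 6.40 FPKM (SD, n = 3), with a log2 fold change of 1.39 (95% interval 0.54 to 2.25). Mki67, which encodes the Ki-67 protein that coats mitotic chromosomes and serves as the pathologist's marker of dividing cells, had 23.3, 8.15 and 15.9 FPKM, then 78.9, 14.5 and 49.3 FPKM, in the same order of tumors. The groups overlapped, since SS18-SSX2 tumor 2 lay below SS18-SSX1 tumors 1 and 3, and the fold change was 1.35 (interval -0.08 to 2.79). Top2a, the topoisomerase that untangles sister chromatids, had 17.9, 13.6 and 29.0 FPKM and 58.0, 17.5 and 41.5 FPKM, with overlap and a fold change of 0.83 (interval -0.26 to 1.91).

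Among the cyclins and their kinase, Ccnb2, cyclin B2, differed most. It had 11.6, 9.14 and 17.0 FPKM with SS18-SSX1 and 39.5, 14.3 and 32.8 FPKM with SS18-SSX2, and its log2 fold change was 1.06 (interval 0.11 to 2.02). Ccnb1, cyclin B1, had 1.21, 0.861 and 2.5 FPKM, then 5.14, 1.59 and 3.02 FPKM. Cyclin B2 RNA thus stood above cyclin B1 RNA per length of the gene models in each tumor. The lengths found from the values were 1541 bases for Ccnb2 and 4217 for Ccnb1, and the order depends on them. Ccna2, cyclin A2, which acts from S phase into early mitosis, had 12, 8.55 and 28.2 FPKM and 38.1, 10.8 and 25.6 FPKM. Cdk1, the kinase that these cyclins activate, had 7.04, 4.83 and 16.6 FPKM and 18.6, 6.61 and 15.3 FPKM. SS18-SSX1 tumor 3 was above SS18-SSX2 tumor 3 for both Ccna2 and Cdk1, and their fold changes were 0.58 (interval -0.68 to 1.85) and 0.52 (interval -0.65 to 1.69).

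The median log2 fold change was 1.06 over the 3 mitotic kinases and 0.65 over the cyclins and Cdk1. Aurka, which matures centrosomes and spindle poles, had 4.33, 3.62 and 5.40 FPKM with SS18-SSX1 and 13.7, 5.48 and 13.9 FPKM with SS18-SSX2. The groups were apart only by the small step between 5.40 and 5.48 FPKM, and the log2 fold change was 1.06 (interval 0.17 to 1.94). Plk1, the kinase that promotes mitotic entry and spindle assembly, had 3.07, 2.11 and 4.24 FPKM, then 13.2, 3.93 and 17.3 FPKM. Its means of 3.14 ± 1.07 and 11.5 ± 6.87 FPKM (SD, n = 3) stood at a ratio of 3.66, and its fold change was 1.43 (interval 0.25 to 2.60). Ttk (Mps1), which starts checkpoint signaling at kinetochores, had 3.10, 1.03 and 2.49 FPKM and 6.11, 2.55 and 2.85 FPKM, a fold change of 0.58 (interval -0.36 to 1.53).

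The 4 checkpoint genes differed in their patterns, with 3 higher means in SS18-SSX2 tumors and 1 lower. Bub1b (BubR1), part of the complex that holds Cdc20, had 8.13, 3.86 and 6.89 FPKM with SS18-SSX1 and 25.1, 7.74 and 21.9 FPKM with SS18-SSX2, a log2 fold change of 1.30 (interval 0.22 to 2.38). Bub1, its kinase relative at the kinetochore, had 4.21, 2.05 and 3.99 FPKM, then 13.0, 3.37 and 6.72 FPKM. Mad2l1 (Mad2), which binds Cdc20 directly, had 4.87, 9.92 and 20.7 FPKM and 16.8, 11.4 and 14.8 FPKM, with its highest value in SS18-SSX1 tumor 3 and its lowest in SS18-SSX1 tumor 1. Bub3, the partner that brings Bub1 and BubR1 to kinetochores, had 49.2, 42.6 and 62.3 FPKM and 50.9, 33.9 and 48.0 FPKM. The Bub3 fold change was -0.21 (interval -0.86 to 0.43). Its promoter stretch above holds a CHR and 2 CCAAT matches, as does that of Cdc20, but the Bub3 stretch lies inside the GENCODE gene.

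Around the APC/C, Cdc20 had the smallest unadjusted p of the 36. This activator of the complex had 11.5, 9.10 and 15.2 FPKM with SS18-SSX1, then 37.4, 19.2 and 45.6 FPKM with SS18-SSX2, and the groups did not overlap. Means were 11.9 ± 3.07 and 34.1 ± 13.5 FPKM (SD, n = 3), and the log2 fold change was 1.38 (interval 0.54 to 2.23, SE 0.36, limma adjusted p = 0.593, with 0.3004 to 0.99997 over 17 other settings). Ube2c, the ubiquitin-conjugating enzyme of the APC/C, had 2.57, 3.49 and 3.11 FPKM and 8.81, 3.38 and 8.81 FPKM. SS18-SSX2 tumors 1 and 3 stood level with each other and above the rest. Pttg1, securin, which guards sister chromatids until the APC/C destroys it, had 14.8, 11.6 and 9.09 FPKM and 10.3, 10.7 and 10.3 FPKM. It varied least of all members, and its fold change was -0.14 (interval -0.74 to 0.46). Its promoter window held neither motif, but that window lies inside the GENCODE gene, and bases ahead of the GENCODE start were not searched. Of the 14 core subunits of the APC/C itself 4 had higher and 10 lower means in SS18-SSX2 tumors, with a median of -0.10 and no call. Anapc5, the most abundant of them, had 120 ± 17.1 and 115 ± 11.3 FPKM (SD, n = 3). Anapc2, Anapc10 and Anapc13 had fold changes of 0.46 (interval -0.36 to 1.29), -0.40 (interval -1.21 to 0.40) and -0.36 (interval -1.34 to 0.62).

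The chromosomal passenger complex, which corrects faulty attachments and later directs cytokinesis, had all 4 members higher in SS18-SSX2 tumors by their means. Incenp, its scaffold, had 9.87, 7.18 and 6.71 FPKM with SS18-SSX1 and 22.7, 10.4 and 26.1 FPKM with SS18-SSX2, without overlap, and a log2 fold change of 1.14 (interval 0.28 to 2.00). Aurkb, its kinase, had 4.92, 4.04 and 6.46 FPKM, then 14.0, 5.96 and 15.0 FPKM. SS18-SSX2 tumor 2 was below SS18-SSX1 tumor 3, so the groups overlapped at a fold change of 0.97 (interval 0.09 to 1.85). Birc5 (survivin), which brings the complex to chromatin, had 2.58, 2.52 and 5.78 FPKM and 8.94, 4.28 and 10.1 FPKM. Cdca8 (borealin) had 2.06, 1.14 and 1.83 FPKM and 6.69, 1.91 and 5.68 FPKM, with only Ccnb1 and Ttk at a lower mean level.

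Of the 5 kinetochore and centromere genes, Cenpf, Cenpe and Nuf2 ranged 9.17-fold, 8.23-fold and 8.16-fold between the highest and lowest tumor. Cenpf, a large protein of the outer kinetochore made in G2, had 6.66, 4.20 and 7.71 FPKM with SS18-SSX1 and 38.5, 5.61 and 25.9 FPKM with SS18-SSX2, and its log2 fold change was 1.45 with an interval from just under 0 to 2.89. Nuf2 and Ndc80 encode partners of the same microtubule-binding complex. Nuf2 had 3.75, 2.96 and 8.80 FPKM, then 24.1, 4.92 and 15.7 FPKM, a fold change of 1.25 (interval -0.09 to 2.59). Ndc80 had 3.86, 3.27 and 6.45 FPKM, then 9.69, 2.74 and 6.87 FPKM, a fold change of 0.34 (interval -0.68 to 1.36). Cenpe, a kinetochore motor, had 3.63, 1.82 and 6.08 FPKM and 15.0, 2.83 and 8.11 FPKM. Cenpa, the histone H3 variant that marks centromeres, had 4.05, 4.88 and 10.7 FPKM and 14.7, 9.38 and 17.3 FPKM, a fold change of 1.04 (interval 0.13 to 1.94). For all 5 genes the highest value was that of SS18-SSX2 tumor 1 or 3.

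Of the genes that build the spindle, Kif2c, a kinesin that shortens microtubules at centromeres, had 2.32, 1.398 and 2.63 FPKM with SS18-SSX1 and 8.09, 2.89 and 8.29 FPKM with SS18-SSX2. These groups did not overlap, and the log2 fold change was 1.17 (interval 0.22 to 2.12). Tpx2, which activates Aurora A on the spindle, had 7.96, 5.02 and 9.43 FPKM and 29.7, 8.04 and 22.4 FPKM, a fold change of 1.18 (interval 0.08 to 2.27). Kif11 (Eg5), the motor that pushes the poles apart, had 9.86, 6.18 and 11.9 FPKM and 28.6, 10.1 and 19.1 FPKM. Nusap1, which bundles spindle microtubules, had 5.38, 2.58 and 6.50 FPKM and 17.3, 5.71 and 10.6 FPKM. For Tpx2, Kif11 and Nusap1 SS18-SSX2 tumor 2 lay within the range of the SS18-SSX1 tumors.

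The 6 genes of the central spindle and cytokinesis differed widely among themselves. Kif20a, a kinesin of the central spindle, had 7.72, 5.40 and 10.7 FPKM with SS18-SSX1 and 30.4, 13.2 and 29.6 FPKM with SS18-SSX2, without overlap, with means of 7.95 ± 2.68 and 24.4 ± 9.73 FPKM (SD, n = 3). Its log2 fold change of 1.46 (interval 0.56 to 2.36) was the highest of the 36 at the pseudocount of 1. At a pseudocount of 0.1 Plk1 stood above it, at 1.65 against 1.56. Ect2, the exchange factor that activates RhoA for the contractile ring, had 5.03, 3.89 and 12.03 FPKM, then 8.98, 4.56 and 6.39 FPKM. The Ect2 fold change was 0.03 (interval -0.96 to 1.02), its highest value lay in SS18-SSX1 tumor 3, and its sign turned in 5 of 17 other settings. Racgap1 and Kif23 together form centralspindlin, which recruits Ect2. Racgap1 had 4.07, 5.77 and 5.89 FPKM and 13.1, 5.72 and 15.3 FPKM, while Kif23 had 7.52, 3.76 and 6.69 FPKM and 22.5, 7.498 and 15.4 FPKM. Anln, a scaffold of the contractile ring, had 7.67, 6.06 and 8.90 FPKM and 29.0, 8.58 and 19.6 FPKM, with a fold change of 1.10 (interval 0.12 to 2.07). Prc1, which crosslinks midzone microtubules, had 5.18, 2.97 and 7.30 FPKM and 15.5, 4.66 and 10.6 FPKM, with a fold change of 0.80 (interval -0.26 to 1.87).

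Set against their own means, the members shared 1 pattern with few departures. The median member lay 1.17 above its own mean log2 level in SS18-SSX2 tumor 1 and 0.91 above it in SS18-SSX2 tumor 3. It lay 0.54, 1.06 and 0.21 below in SS18-SSX1 tumors 1, 2 and 3, and 0.36 below in SS18-SSX2 tumor 2. After each tumor's median was taken off, Pttg1 and Bub3 had their largest departures in SS18-SSX2 tumor 1, where they were at 0.416 and 0.479 times the common pattern. In SS18-SSX1 tumor 3 Ect2 was at 2.21, Mad2l1 at 2.01, Cdk1 at 1.90 and Ccna2 at 1.84 times the common pattern. That tumor also had the highest sums of mast cell and erythroid markers, and a link to either was not tested. Members with a CHR match had a median log2 fold change of 1.02 (22 genes) and those with a window but no match 0.86 (8 genes), and both sets ranged widely, from -0.21 to 1.45 and from -0.14 to 1.25.

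**Figure D4:**
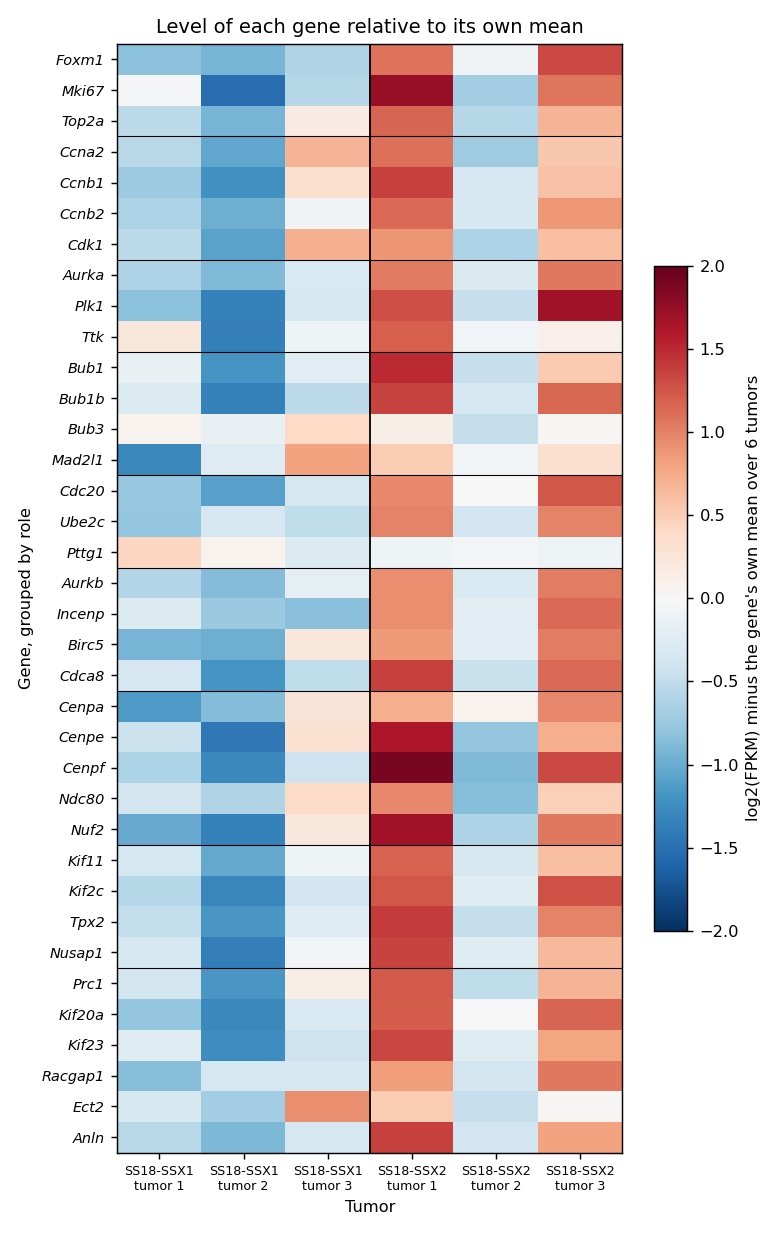
Level of each member in each tumor as log2(FPKM) minus the gene's own mean over the 6 tumors, with red above and blue below that mean, genes grouped by role and a vertical line between genotypes. Columns of SS18-SSX2 tumors 1 and 3 are red in most rows and that of SS18-SSX1 tumor 2 is mostly blue, while Pttg1 stays pale, Bub3 departs little and Ccna2, Cdk1, Mad2l1 and Ect2 are red in SS18-SSX1 tumor 3.

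Other genes of the pathway were counted in lists that exclude the members, and none of their genes passed limma's test over all genes. Of 28 further spindle motor and microtubule genes, 26 had higher means under SS18-SSX2 and 2 lower, with a median log2 fold change of 0.92. The groups of 4 did not overlap, all higher (14.3%), where 4.97% of all tested genes were apart and higher. Kif22, a chromosome-arm kinesin, had 5.51 ± 2.15 and 18.0 ± 8.97 FPKM (SD, n = 3 here and for the pairs that follow, SS18-SSX1 first), a fold change of 1.47 (interval 0.40 to 2.53). Kifc1, a minus-end kinesin that clusters spindle poles, had 2.86 ± 0.116 and 7.67 ± 3.26 FPKM, and Knstrn, a kinetochore and spindle adaptor, had 2.29 ± 0.801 and 7.44 ± 3.58 FPKM. Numa1 and Ckap5, which also serve spindle poles and microtubule growth, were the most abundant of the list and had smaller fold changes of 0.29 (interval -0.34 to 0.92) and 0.43 (interval -0.25 to 1.11). Aspm, a spindle pole protein named after its values were seen, had the highest fold change of the list, 1.57, with 3.59, 1.73 and 3.78 FPKM, then 22.5, 3.36 and 14.2 FPKM, in tumors 1, 2 and 3.

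Regulators of mitotic entry and exit had 18 of 21 tested genes with higher means and 3 with lower, and a median of 0.50. The groups of 4 did not overlap, all of them higher (19.0%), where 4.97% of all tested genes were apart and higher. Cdc25b and Cdc25c, phosphatases that activate Cdk1, had 5.60 ± 1.48 and 12.7 ± 4.71 FPKM, and 3.09 ± 0.508 and 8.23 ± 3.95 FPKM. Cdc14b, a phosphatase of mitotic exit, had a fold change of 0.85 (interval 0.15 to 1.54). Cks1b, a small Cdk subunit, and Ensa, an inhibitor of the phosphatase PP2A, lay on the other side at -0.67 (interval -1.66 to 0.32) and -0.56 (interval -1.38 to 0.27). The value of Cks1b was 52.9 FPKM in SS18-SSX1 tumor 3 and 13.3 to 20.6 FPKM in the other 5 tumors.

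Among 33 further kinetochore genes 27 were higher and 6 lower by their means, with a median of 0.29. The groups did not overlap for 3 higher (9.09%) and 1 lower, where 4.97% and 3.76% of all tested genes were. Spc24, a subunit of the Ndc80 complex, had 7.21 ± 2.43 and 12.6 ± 1.49 FPKM without overlap. Zwint, which anchors checkpoint proteins, lay the other way at 16.5 ± 2.47 and 9.81 ± 1.04 FPKM, again without overlap, and its fold change was -0.69 (interval -1.25 to -0.14). Ska3, Hjurp and Pmf1, which serve microtubule coupling, the loading of the centromeric histone and the Mis12 complex, had fold changes of 0.92 (interval 0.06 to 1.77), 0.54 (interval -0.42 to 1.51) and 0.28 (interval -0.56 to 1.11). Condensin and cohesin genes had higher means for 14 of 20 and a median of 0.38, with 1 gene apart and higher and 1 apart and lower. Espl1, separase, had 2.66 ± 0.492 and 7.18 ± 3.16 FPKM, Ncapd2 of condensin had 29.6 ± 8.07 and 61.6 ± 25.6 FPKM, and Sgo2a, a shugoshin that protects centromeric cohesin, had 3.48 ± 2.10 and 10.1 ± 6.90 FPKM. Rad21, the kleisin of the cohesin ring, had 75.1 ± 14.5 and 75.4 ± 26.6 FPKM, a fold change of -0.03 (interval -0.82 to 0.75).

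Factors known as background to bind CHR, E2f or CCAAT elements were counted apart from Foxm1, a member with a fold change of 1.39. Of 19 genes of the MuvB, Myb and E2f families 14 were higher and 5 lower by their means, with a median log2 fold change of 0.20. Mybl2, B-Myb, had 1.05 ± 0.554 and 2.09 ± 1.08 FPKM, and the repressors E2f7 and E2f8 had 0.920 ± 0.291 and 2.49 ± 1.41 FPKM, and 1.32 ± 0.579 and 3.24 ± 1.46 FPKM. Rbbp4, a MuvB subunit, and Tfdp1, the partner of E2f proteins, had fold changes of 0.03 (interval -0.56 to 0.62) and -0.14 (interval -0.82 to 0.53). The NF-Y subunits Nfya, Nfyb and Nfyc had fold changes of 0.09 (interval -0.58 to 0.76), -0.57 (interval -1.58 to 0.43) and 0.30 (interval -0.40 to 0.99). DNA replication genes, which belong to S phase, had higher means for 17 of 22 and a median of 0.25. Their mean log2(FPKM + 1) was 3.52, 2.98 and 3.69 under SS18-SSX1 and 3.93, 2.99 and 3.92 under SS18-SSX2 (tumors 1, 2 and 3), so tumor 2 was the lowest of each genotype here too. Rrm2, the S phase subunit of ribonucleotide reductase, had 14.3 ± 4.34 and 22.9 ± 7.81 FPKM, while Mcm10 and Lig1, of replication start and nick sealing, had fold changes of 0.62 (interval -0.21 to 1.45) and 0.47 (interval -0.27 to 1.21). Mcm6 and Mcm2 of the replicative helicase had 42.8 ± 17.0 and 62.2 ± 30.4 FPKM, and 41.8 ± 23.7 and 34.7 ± 11.6 FPKM. The differences between the medians of these lists and that of the mitosis genes were not tested.

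**Figure D5:**
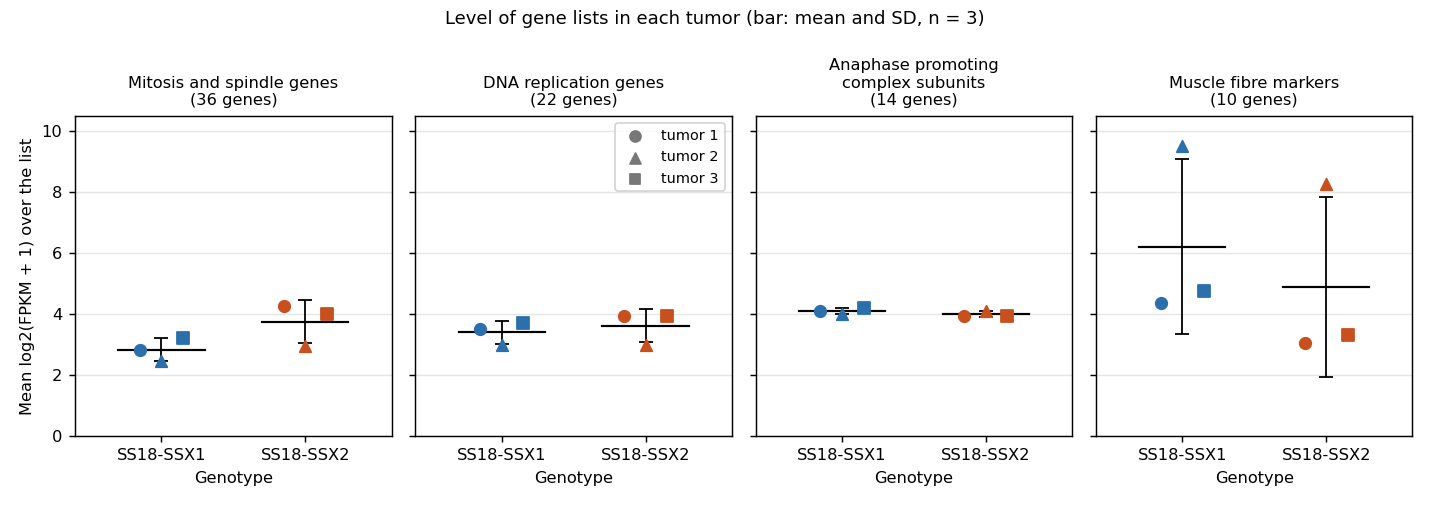
Mean log2(FPKM + 1) over the mitosis and spindle genes, DNA replication genes, APC/C subunits and muscle fibre markers in each tumor, by genotype, with symbols for tumors 1 to 3 and bars for the mean and SD (n = 3). Tumor 2 (triangle) is lowest in each genotype for the first and second lists and highest for muscle, and the APC/C subunits lie between 3.94 and 4.18 in all 6 tumors.

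The size of the difference depended on which tumors were compared. The members' median log2 fold change was 0.75, 1.37 and 0.85 when SS18-SSX2 tumor 1, 2 or 3, respectively, was left out. It was 0.98, 0.86 and 1.15 when SS18-SSX1 tumor 1, 2 or 3 was. With the muscle level as a covariate it was 0.77, and without both muscle-rich tumors it was 1.25. In that comparison of 2 tumors with 2, the groups were apart for 29 members, all higher in SS18-SSX2 tumors, where 34.4% of tested genes were apart in either direction. Without SS18-SSX2 tumor 2 alone 29 members were apart, all higher, against 22.8% of tested genes in either direction. Without SS18-SSX1 tumor 3 alone 19 were, of which 18 were higher, against 18.2% in either direction. No member passed limma's adjusted threshold in any of these fits.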

How the data were processed

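RNA sequencing covered 6 tumors, 3 per genotype, as whole tissue. The labels name snap freezing, Qiagen RNeasy extraction and a Ribo-Zero library method. Novoalign 2.08.03 and the build mm10 appear, with neither role nor order, per the submitters' processing notes. FPKM values are as deposited by the authors, in 1 column per tumor. Read counting, gene models, use of strand and gene filter: not given in the sources used here. Overlapping or near-identical genes may have had their reads split in ways that change a value, and FPKM shares its total with every other RNA in the tumor.

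Columns were assigned by the descriptions of the samples, and 17029 of 17312 identifiers had a symbol in GENCODE mouse release 21. Library totals came from steps between low values of 1311 single-exon genes, of which 76.7% to 84.1% per tumor were whole within 0.02 reads. With them all 36 members gave whole reads in all 6 tumors, 16 at the annotated exon length and the others at a length found from the values. The 13873 genes with at least 1 FPKM in at least 3 tumors were fitted on the log2 scale with a pseudocount of 1, using lmFit and eBayes with a trend (limma 3.58.1, R 4.3.3). Tests were two-sided, with Benjamini-Hochberg adjustment at a threshold of 0.05, and the fit was tested on simulated data. Intervals are limma's 95% intervals, and each SD is of FPKM over 3 tumors. Python 3.11.15 with pandas 2.3.3 and numpy 2.4.6 made the tables, and matplotlib 3.10.9 drew the plots.

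Promoter windows are those of RefSeq (GRCm38.p6). The members, lists, tests and alternatives were chosen with earlier results of these data known. All members are named, and for each other pathway list the 3 tested genes of smallest p and the 2 of highest mean level. Of the 2 most abundant genes of each marker list the text gives those for muscle and sarcoma. The alternatives were other pseudocounts, filters and scalings, no variance trend, a replicate block, a muscle covariate and tumors left out.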

Additional observations from a re-analysis of the deposited data

How the results depend on the processing

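The call of 0 members held in all 17 other settings, with limma adjusted p from 0.223 upward (32 members tested at a mean of at least 5 FPKM, 36 otherwise), and members at an unadjusted p under 0.05 numbered 3 to 28 across settings (17 as reported), where 2.20% to 6.98% of all genes were. The members' median log2 fold change stayed positive throughout: 0.93 with quantile normalization, 1.15 after rescaling to TPM, 1.10 with a pseudocount of 0.1, and 0.75 to 1.37 with each tumor left out. Members without overlap numbered 6 as reported (8.72% of all tested genes), 3 after rescaling to TPM (6.03%) and 29 without both muscle-rich tumors (34.4%). With SS18-SSX1 tumor 1, 2 or 3 left out they numbered 10, 7 and 19 (23.0%, 19.5% and 18.2%). Of the 19, 18 were higher in SS18-SSX2 tumors. With SS18-SSX2 tumor 1, 2 or 3 left out they numbered 6, 29 and 6 (18.2%, 22.8% and 10.7%). The 3 after rescaling to TPM, the 7 without SS18-SSX1 tumor 2 and the 6 without SS18-SSX2 tumor 1, all of 36, are near those shares. The shares are for either direction, while these members were all higher in SS18-SSX2 tumors. Over all genes, 9 calls became 5 with a pseudocount of 0.1, 4 with the replicate block, 4 without both muscle-rich tumors, and 1 to 3 with each tumor left out, where fewer samples were fitted. For the other drops the cause was not tested.

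Of single members Ect2, Mad2l1 and Pttg1 changed sign. Ect2 turned to -0.16 with the muscle covariate, -0.046 without both muscle-rich tumors and ranged from -0.26 to 0.45 with 1 tumor left out, negative without SS18-SSX1 tumor 1 or 2 or SS18-SSX2 tumor 1. With 1 tumor left out Mad2l1 ranged from -0.021 to 0.92 and Pttg1 from -0.30 to 0.022, each past 0 only without SS18-SSX1 tumor 1. Tumors of the 2 genotypes share replicate numbers. Deviations from the genotype means correlated at 0.38, 0.31 and -0.28 for tumors 1, 2 and 3, and at -0.44 to 0.23 between tumors of unlike number. Tumors 1 and 2 thus correlated above every unlike pair and tumor 3 did not. Since not every pair of like number correlated, the numbers were not taken as pairs. The descriptions give libraries of the same number the same first letter in both genotypes (N, A and B for tumors 1, 2 and 3). In tumor 1 the letter is followed by numbers that differ between the genotypes. No word is given on what the letter marks, so a shared source was not tested. With the replicate block 24 members stood at an unadjusted p under 0.05, where 5.96% of all genes did, and none was called (smallest adjusted p 0.497). Of 36 members the SS18-SSX2 tumor had the higher value for 35, 31 and 31 against the SS18-SSX1 tumor of its number. Depth limits the members of low level most: the shallowest library, SS18-SSX2 tumor 2, held 44 to 1148 reads per member, against 258 to 11548 in SS18-SSX2 tumor 1.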
